A study of Mus musculus with 37 samples.

Results

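The 10 genes Per1, Per2, Per3, Dbp, Nr1d1, Nr1d2, Cry1, Cry2, Tef and Npas2, which belong to the circadian clock or are its direct outputs, were followed across 37 expression arrays of mouse temporal lobe. They were chosen by symbol, and each gene was read from its brightest probe set over all arrays among the probe sets with 1 gene symbol. All 10 were found among 18193 genes with such a probe set, and all 10 passed the filter on low signal that left 13078 genes for testing. The arrays came from mice lacking Wfs1 (KO) and from wild-type mice (WT) on 2 backgrounds, labelled C57 and 129SV and written C57 and 129 here. Wfs1 encodes wolframin, a membrane protein of the endoplasmic reticulum that is mutated in Wolfram syndrome. There were 10 arrays of 129 KO, 9 of 129 WT, 9 of C57 KO and 9 of C57 WT. The labels give no time of dissection, light cycle, age, sex or litter, and do not state that each array is an animal of its own, and p-values therefore cover only the spread among these samples. Signals are log2 values that the authors had normalized between arrays, and a difference of 1 is a doubling of signal. Differences are called at a limma p under 0.05 after Benjamini-Hochberg adjustment over the 13078 genes.

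In the mammalian clock the transcription factors CLOCK or its paralogue NPAS2, joined to BMAL1 (encoded by Arntl), bind E-box sequences and switch on the Per and Cry genes, whose proteins return to the nucleus and block that activation. The same pair drives Nr1d1 and Nr1d2, which encode the REV-ERB receptors that repress Arntl, and it drives Dbp, a PAR-bZIP factor that acts on D-boxes together with Tef and Hlf. Transcripts of Dbp, Nr1d1 and the Per genes therefore run through a daily cycle in most tissues, brain regions outside the suprachiasmatic nucleus included, and Arntl runs in roughly the opposite phase. Per1 also answers quickly to glucocorticoids and to neuronal activity.

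Wfs1 checked the genotype labels: its signal averaged 3.11 ± 0.28 in 129 KO (SD, n = 10) and 9.33 ± 0.12 in 129 WT (SD, n = 9), and 3.03 ± 0.26 in C57 KO and 9.32 ± 0.17 in C57 WT (SD, n = 9 each). Array medians lay between 4.30 and 4.36. The 3′ minus 5′ signal of the actin control probe sets, which grows with RNA degradation, ran from 0.91 to 2.76. The summed signal of 7 measured forebrain neuron markers, as log2 of the sum, lay between 12.69 and 13.33 on all arrays. Of 8 measured markers of the suprachiasmatic nucleus and hypothalamus, Six6, Lhx1 and Prok2 lay below the filter, at mean signals of 2.24, 2.42 and 2.79. The other 5 lay above it, Avp at 7.48, Vip at 7.62, Hcrt at 3.89, Pmch at 4.92 and Oxt at 6.68. In tissue pieces like these, fewer cells of a type and less RNA per cell cannot be told apart.

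The first comparison asked whether loss of Wfs1 was accompanied by other levels of clock transcripts. None of the 10 genes was called in either strain. In 129, KO minus WT differences ran from -0.15 for Cry1 (SE 0.07, adjusted p = 1) to 0.18 for Nr1d1 (SE 0.10, adjusted p = 1), and 1 of 13078 genes was called, 0.00765%. In C57, differences ran from -0.29 for Dbp to 0.07 for Npas2, and 14 genes were called, 0.107%. The median difference of the members was 0.00 in 129 and -0.09 in C57, beside -0.00 and 0.02 over all genes tested. At an unadjusted p under 0.05 the limma fit gave 1 member in 129, Cry1, and 0 in C57, beside 279 and 833 of all genes. That fit draws each gene's spread from all groups together.

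Averaged over both strains, KO minus WT differences of the members lay between -0.11 and 0.02 with 0 called, where 3 genes or 0.0229% were called in all. The test of the difference between the C57 and the 129 effect also called 0 members, with 2 genes or 0.0153% called in all. The member nearest to a call there was Nr1d1, whose KO effect was 0.33 lower in C57 than in 129 (SE 0.14, unadjusted p = 0.0249, adjusted p = 0.999). In 129 KO arrays Nr1d1 ran from 6.23 to 6.68 with a median of 6.49, and in 129 WT arrays from 5.82 to 6.65 with a median of 6.27. In C57 KO arrays it ran from 6.02 to 6.42 with a median of 6.30, and in C57 WT arrays from 6.15 to 6.80 with a median of 6.41. The groups overlapped in both strains. At higher sample numbers alone, Nr1d1 averaged 6.38 in 129 KO (n = 5) and 5.97 in 129 WT (n = 4) with no overlap, a difference of 0.40 with an exact permutation p of 0.00794, the smallest possible, against 0.02 at lower numbers. Cry1 did not overlap there either, at 5.67 in 129 KO and 5.93 in 129 WT, a difference of -0.27 with the same exact permutation p, unadjusted. Both genes are picked from the comparisons of all members in both strains and both number sets. The share of all genes without overlap there was not counted. limma fitted to either number set alone called 0 members for KO minus WT.

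Dbp had the lowest KO minus WT estimate of the members in C57. Its signal ran from 8.71 to 9.10 with a median of 8.87 in C57 KO arrays and from 8.98 to 9.45 with a median of 9.18 in C57 WT arrays. The groups overlapped in part of their ranges, and the mean difference was -0.29 (SE 0.15, 95% interval -0.59 to 0.02, adjusted p = 0.819). The SE and interval draw on the spread of all groups together, not of C57 alone. Dbp's SD was 0.15 in C57 KO and 0.17 in C57 WT, and 0.43 in 129 KO and 0.46 in 129 WT. The second Dbp probe set gave -0.29 as well. An exact permutation test of this gene alone over the 18 C57 arrays gave an unadjusted 2-sided p of 0.0021, and limma with the C57 arrays only gave an adjusted p of 0.367. At lower sample numbers Dbp ran from 8.74 to 9.03 in C57 KO and from 9.10 to 9.36 in C57 WT with no overlap (exact permutation p = 0.00794, unadjusted), and at higher numbers the groups overlapped. This too is picked from the comparisons of all members in both strains and both number sets. The summed signal of 6 striatum markers ran from 10.32 to 11.45 with a median of 10.59 in C57 KO arrays. In C57 WT arrays it ran from 10.55 to 11.65 with a median of 11.29. All 6 marker estimates were below 0, from -0.77 to -0.37 with a median of -0.50. Each had an unadjusted limma p under 0.05, and 0 were called after adjustment. Their part in the Dbp values was not tested. In 129 the Dbp estimate was 0.06 (SE 0.15, adjusted p = 1).

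**Figure D1:**
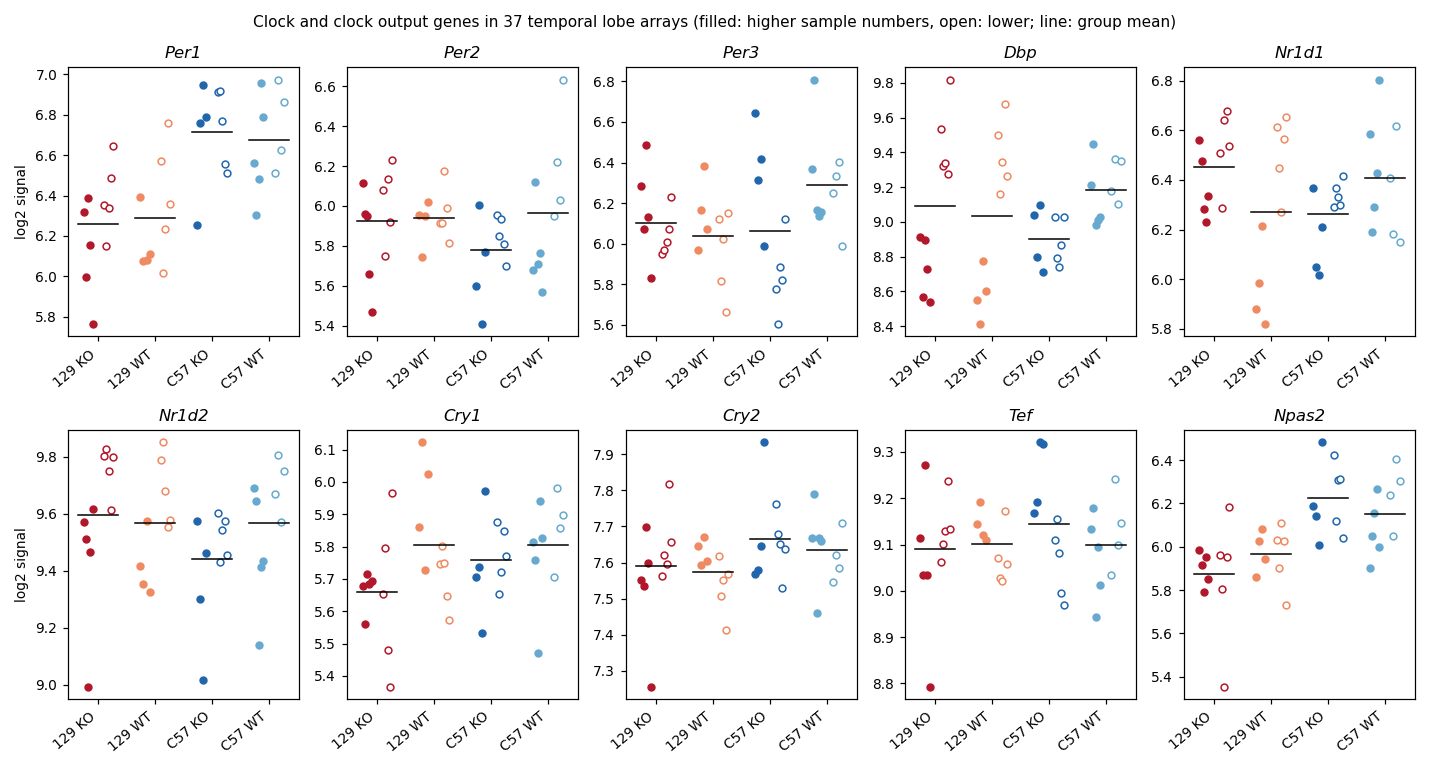
Log2 signal of each of the 10 genes on every array, by group on the horizontal axis, with filled points for higher and open points for lower sample numbers and a line at the group mean. Dbp splits into separate clouds in 129 KO and 129 WT and stays in 1 cloud in C57, while Per1 sits lower in both 129 groups than in both C57 groups.

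The strains differed in Per1 and Npas2. Per1, a repressor of the clock's own activators, ran from 5.76 to 6.64 with a median of 6.33 in 129 KO arrays and from 6.25 to 6.95 with a median of 6.77 in C57 KO arrays. Only the upper part of the 129 KO range met the lower part of the C57 KO range, and Per1 was lower in 129 KO by a difference of -0.46 (SE 0.11, adjusted p = 0.00936). Among WT arrays Per1 ran from 6.02 to 6.76 with a median of 6.23 in 129 and from 6.30 to 6.97 with a median of 6.63 in C57. The WT difference was -0.39 (SE 0.11), and its adjusted p of 0.0507 missed the threshold narrowly. That p was under 0.05 in 7 of the other settings tried, as with the sample-number split as a block (-0.41, adjusted p = 0.0251), and without any 1 of 11 arrays.

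Npas2, the forebrain paralogue of Clock and a partner of BMAL1, ran from 5.35 to 6.19 with a median of 5.93 in 129 KO arrays and from 6.01 to 6.48 with a median of 6.19 in C57 KO arrays. The difference was -0.35 (SE 0.08, adjusted p = 0.00558), and the lowest value belonged to 129 KO array 52. In WT arrays the Npas2 difference between 129 and C57 had the same sign, -0.18 (SE 0.08, adjusted p = 0.317). A second, dimmer Npas2 probe set gave -0.18 in KO arrays (adjusted p = 0.65), so the call rests on the brighter one. In all, 2 of 10 members were called between the KO groups, where 400 genes or 3.06% were called, and 0 of 10 between the WT groups, where 269 genes or 2.06% were called. The astrocyte marker S100b was also called between the KO groups, at -0.25 (adjusted p = 0.00528), as the only one of 5 astrocyte markers tested. All 5 were lower in 129 KO, with a median of -0.15, and 3 had an unadjusted limma p under 0.05. The part of these markers in the Per1 and Npas2 values was not tested. Whether these strain differences depend on genotype was tested by the difference of effects given above, which called neither gene. With lower or with higher numbers only, neither Per1 nor Npas2 was called between the KO groups, at -0.34 and -0.56 for Per1 and -0.39 and -0.31 for Npas2 (adjusted p from 0.103 to 0.249).

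**Figure D2:**
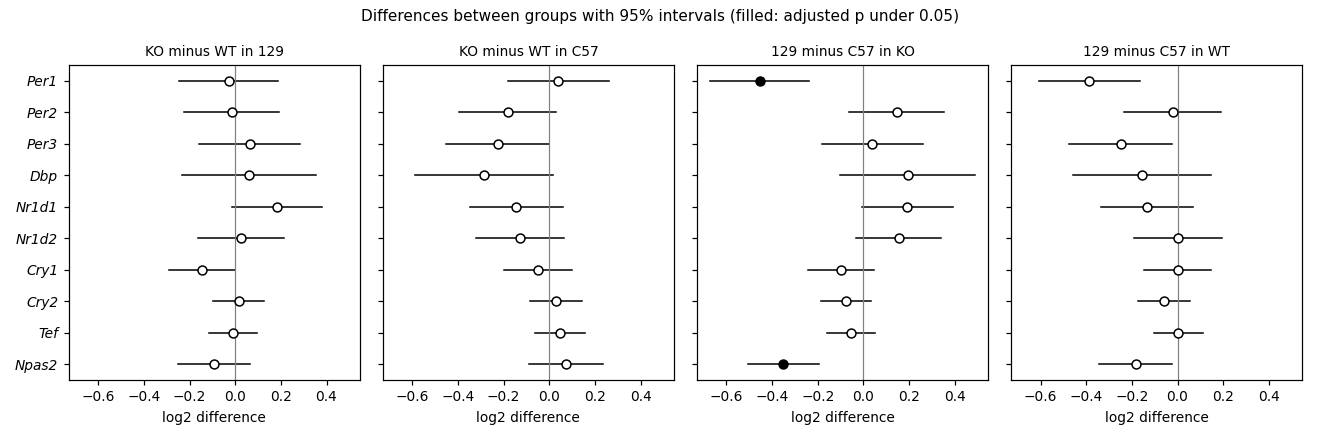
Differences between groups on the horizontal axis in log2 units, with 95% intervals, for each of the 10 genes and 4 comparisons, filled where the adjusted p was under 0.05. The filled points are Per1 at -0.46 and Npas2 at -0.35 for 129 minus C57 in KO arrays.

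Among arrays of 1 group, Dbp varied most of the 10 genes. Its residual SD, over 37 arrays after group means were removed, was 0.34, above 97.6% of all genes tested, whose median was 0.16. Per3, Per1, Per2, Nr1d1 and Nr1d2 followed with 0.25, 0.24, 0.23, 0.22 and 0.21. Npas2 and Cry1 lay near the middle of all genes with 0.17 and 0.16, and Cry2 and Tef lay below it with 0.11 each. Dbp's spread differed by strain, with an SD of 0.43 in 129 KO, 0.46 in 129 WT, 0.15 in C57 KO and 0.17 in C57 WT.

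The arrays carry running sample numbers in their titles, and these gave the only order available. The labels do not say what the numbers stand for. In each group the arrays were split into a set of higher and a set of lower numbers at a point that earlier results of these data had shown to separate arrays by many genes. Whether any clock gene helped to find those points is not known, so the fits below describe how the genes follow the split. With group means in the model, 932 of 13078 genes were called between higher and lower numbers, 7.13%, and 4 of the 10 members were among them, 1 higher and 3 lower, where 2.91% of all genes were higher and 4.21% lower. Dbp differed by -0.42 (SE 0.08, adjusted p = 0.000624), Nr1d2 by -0.26 (SE 0.05, adjusted p = 0.00122), Per2 by -0.21 (SE 0.07, adjusted p = 0.0497) and Per3 by 0.22 (SE 0.07, adjusted p = 0.0494). With the mean of probe sets Nr1d2 gave -0.05 (adjusted p = 0.806) and Per3 gave 0.02 (adjusted p = 0.790). The Per2 call ended without any 1 of 26 arrays and the Per3 call without any 1 of 24, so that 2 to 4 members were called with 1 array left out.

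Dbp followed the split in 129. In 129 KO the arrays with higher numbers, 55 to 59, read 8.91, 8.57, 8.89, 8.73 and 8.54, against 9.54, 9.32, 9.34, 9.28 and 9.82 in arrays 50 to 54. In 129 WT the arrays with higher numbers, 76 to 79, read 8.55, 8.41, 8.77 and 8.60, against 9.50, 9.16, 9.34, 9.68 and 9.27 in arrays 70 to 74. The higher and the lower numbers did not overlap in either genotype. The difference over both genotypes was -0.77 (SE 0.08, adjusted p = 2.87e-08), and the second Dbp probe set gave -0.59 (adjusted p = 1.1e-06 among all probe sets).

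In C57 Dbp did not follow the split. C57 KO arrays read 9.04, 8.80, 9.10 and 8.71 at higher numbers and 9.03, 8.79, 8.74, 8.87 and 9.03 at lower numbers. C57 WT arrays read 9.21, 9.45, 8.98, 9.01 and 9.03 at higher numbers and 9.18, 9.36, 9.10 and 9.35 at lower numbers. The sets overlapped in both genotypes, and the difference was -0.04 (SE 0.08, 95% interval -0.21 to 0.12, adjusted p = 0.803). The number difference itself differed between 129 and C57 by -0.72 (SE 0.12, adjusted p = 0.00109), where 73 genes or 0.558% were called.

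**Figure D3:**
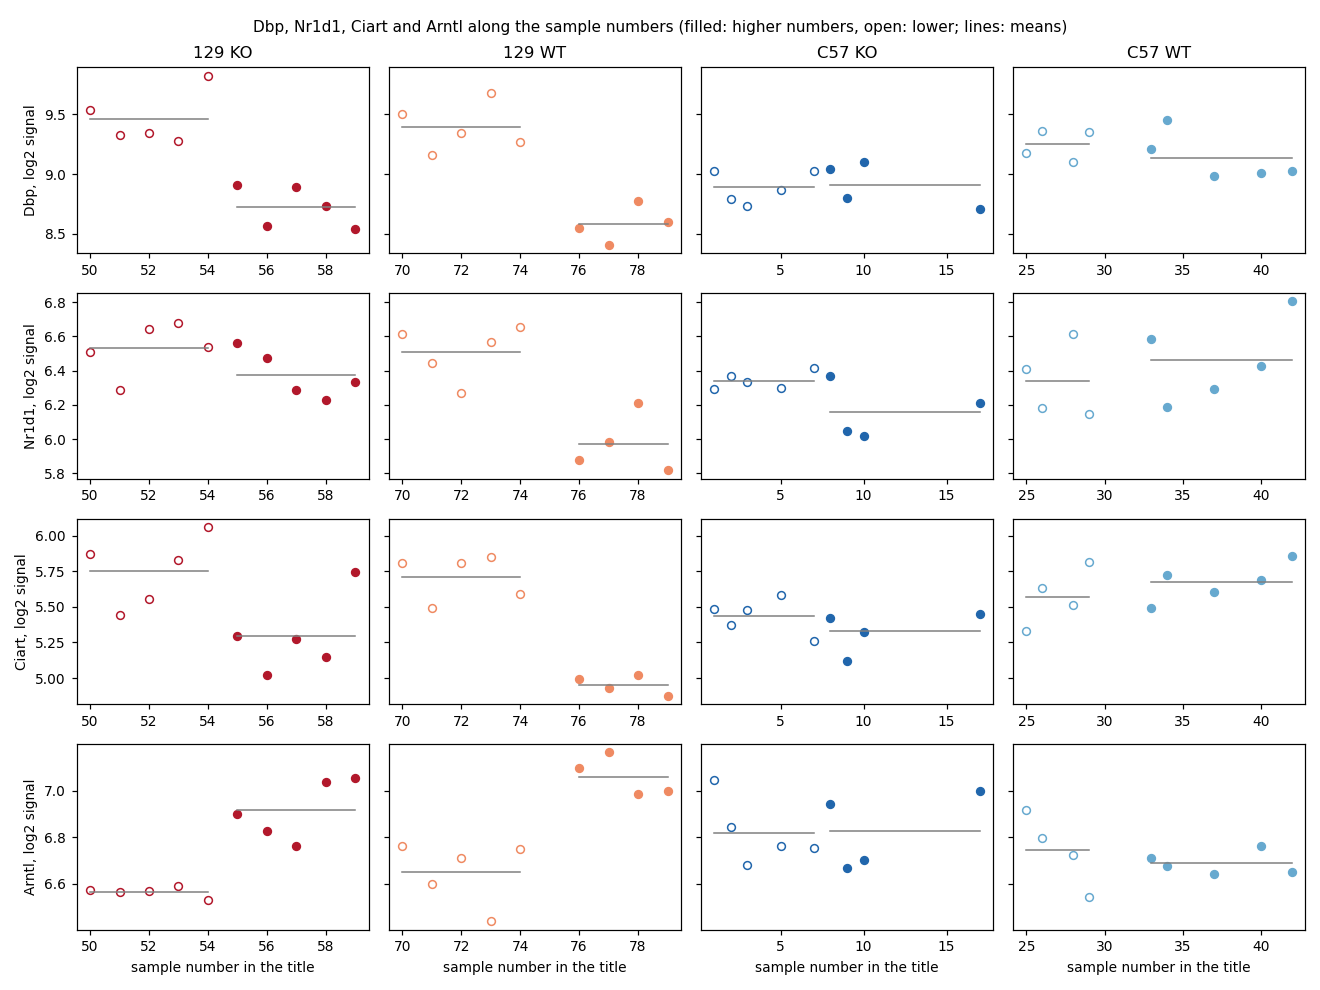
Log2 signals of Dbp, Nr1d1, Ciart and Arntl against the sample number in the title, by group, with filled points for higher and open points for lower numbers and lines at their means. In 129 KO and 129 WT Dbp steps down and Arntl, read from its brightest probe set, steps up at the split without overlap, and in C57 the sets overlap for both.

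Dbp's strain difference had opposite signs in the number sets, with 1 of the 2 values called in each genotype. These values restate the step in 129 given above and are not a separate test of it. Each group was split at its own point, and the labels do not say that the number sets of different groups correspond. Between 129 KO and C57 KO it was 0.57 with lower numbers only (adjusted p = 0.0112) and -0.18 with higher numbers only (adjusted p = 0.714). Between 129 WT and C57 WT it was 0.14 with lower numbers only (adjusted p = 0.701) and -0.55 with higher numbers only (adjusted p = 0.0252). Over all arrays the differences were 0.19 in KO (adjusted p = 0.698) and -0.15 in WT (adjusted p = 0.819).

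Within 129, 3 of the 10 members were called, where 731 genes or 5.59% were called. Beside Dbp these were both REV-ERB genes. In C57 Nr1d1 differed by -0.03 (adjusted p = 0.864) and Nr1d2 by -0.21 (adjusted p = 0.134). The number difference was not called between 129 and C57 for either gene. It was -0.31 for Nr1d1 (adjusted p = 0.174) and -0.09 for Nr1d2 (adjusted p = 0.730). Nr1d1 read 5.88, 5.98, 6.21 and 5.82 in 129 WT at higher numbers, against 6.61, 6.45, 6.27, 6.57 and 6.65 at lower numbers, with no overlap. In 129 KO it read 6.56, 6.48, 6.28, 6.23 and 6.33 at higher numbers, against 6.51, 6.29, 6.64, 6.68 and 6.54, with overlap. Its difference over both genotypes was -0.34 (SE 0.08, adjusted p = 0.00361). Nr1d2 averaged 9.43 ± 0.25 at higher and 9.76 ± 0.09 at lower numbers in 129 KO (SD, n = 5 each). In 129 WT it averaged 9.42 ± 0.11 at higher (n = 4) and 9.69 ± 0.13 at lower numbers (n = 5), and the difference over both genotypes was -0.30 (SE 0.08, adjusted p = 0.0120). The number sets overlapped in both genotypes. The Nr1d2 call rests on the brightest probe set: within 129 the second gave 0.30 (adjusted p = 0.370) and the mean of both gave 0.00012 (adjusted p = 1).

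Read from their brightest probe sets, the Per genes split less clearly. Per1 differed by -0.25 in 129 (SE 0.10, adjusted p = 0.17) and -0.09 in C57 (adjusted p = 0.689). Per2 differed by -0.12 in 129 (adjusted p = 0.509) and -0.30 in C57 (adjusted p = 0.0782), and Per3 by 0.15 (adjusted p = 0.389) and 0.29 (adjusted p = 0.0958). With the mean of its probe sets Per2 was called in 129, at -0.31 (adjusted p = 0.00258). Within C57, 0 members were called, 3 at an unadjusted p under 0.05, where 356 genes or 2.72% were called. Cry1, Cry2, Tef and Npas2 lay between -0.11 and 0.12 in both strains and were not called.

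**Figure D4:**
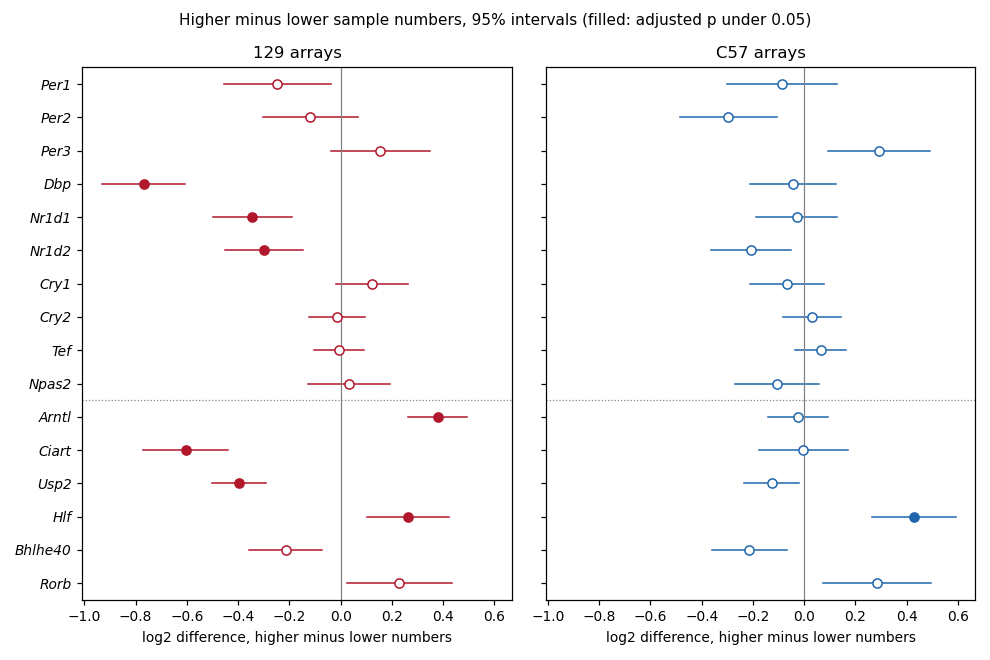
Higher minus lower sample numbers in 129 and in C57 arrays, in log2 units on the horizontal axis with 95% intervals, for the 10 genes and, under the dotted line, 6 further clock genes, filled where the adjusted p was under 0.05. In 129 the filled points are Dbp, Nr1d1, Nr1d2, Arntl, Ciart, Usp2 and Hlf, and in C57 only Hlf is filled.

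Of 22 further clock genes listed, 18 were tested, and 3 rose and 3 fell with higher numbers within 129, beside 3.26% and 2.33% of all genes. Arntl, which encodes BMAL1, averaged 6.92 ± 0.13 at higher and 6.57 ± 0.02 at lower numbers in 129 KO (SD, n = 5 each). In 129 WT it averaged 7.06 ± 0.09 at higher (n = 4) and 6.65 ± 0.14 at lower numbers (n = 5). The sets did not overlap in either genotype, and the difference was 0.38 (SE 0.06, adjusted p = 2.27e-05). Ciart, whose protein binds and represses the CLOCK and BMAL1 pair, differed by -0.60 (SE 0.08, adjusted p = 3.93e-06) and did not overlap in 129 WT. In 129 KO it overlapped through array 59, which read 5.75 where the other arrays with higher numbers lay between 5.02 and 5.30. Usp2, a deubiquitinase gene driven by the clock in many tissues, differed by -0.40 (SE 0.05, adjusted p = 1.46e-06).

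In C57 these genes stood at -0.02 for Arntl, -0.00 for Ciart and -0.13 for Usp2, with none called. For Arntl this holds for the brightest probe set only: in C57 its second probe set gave 0.50 (adjusted p = 0.00024) and the mean of both gave 0.24 (adjusted p = 0.00265). The number difference differed between 129 and C57 by 0.40 for Arntl (SE 0.08, adjusted p = 0.0102) and by -0.60 for Ciart (SE 0.12, adjusted p = 0.00959). The Arntl value was -0.0916 with the second probe set (adjusted p = 0.771) and 0.16 with the mean of both (adjusted p = 0.290), so that call rests on the brightest probe set. Hlf, the third PAR-bZIP factor beside Dbp and Tef, rose in both strains, by 0.26 in 129 (adjusted p = 0.0380) and 0.43 in C57 (adjusted p = 0.00121). Gsk3b, a kinase with many roles outside the clock, also rose in both, by 0.54 and 0.53, and Csnk1e, which phosphorylates PER proteins, fell by 0.38 in 129 (adjusted p = 0.00296). Over both strains Rorb rose by 0.25 (adjusted p = 0.0227) and Bhlhe40, an E-box repressor, fell by 0.22 (adjusted p = 0.00394). Clock, Rora and Nfil3 were called in neither strain, and Bhlhe41 lay below the filter.

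Promoter windows of 4 genes that split in 129 are shown so that their E-boxes and related sites can be read beside the values. The windows are RefSeq sequences of build GRCm38.p6, from 250 bases before to 50 after the annotated start. Matches on either strand are in capitals for the E-box CACGTG, the E′-box CACGTT, the D-box TTANGTAA, the REV-ERB and ROR core site AGGTCA and the CRE TGACGTCA. Over 32817 such windows of all genes, 7.15% held the E-box, 4.69% the E′-box, 2.32% the D-box, 16.3% the core site and 1.79% the CRE. The first 3 windows belong to genes that were lower at higher numbers in 129, Dbp at chr7:45704997-45705296 on the plus strand, Ciart at chr3:95882179-95882478 on the minus strand and Nr1d1 at chr11:98775328-98775627 on the minus strand. The last belongs to Arntl, which was higher there, at chr7:113207261-113207560 on the plus strand.
Dbp: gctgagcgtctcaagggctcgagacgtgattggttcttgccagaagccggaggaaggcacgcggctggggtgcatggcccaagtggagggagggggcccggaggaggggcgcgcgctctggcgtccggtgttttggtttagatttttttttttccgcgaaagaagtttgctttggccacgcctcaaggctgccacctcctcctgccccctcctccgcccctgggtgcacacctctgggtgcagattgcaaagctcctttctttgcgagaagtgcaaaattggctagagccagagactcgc
Ciart: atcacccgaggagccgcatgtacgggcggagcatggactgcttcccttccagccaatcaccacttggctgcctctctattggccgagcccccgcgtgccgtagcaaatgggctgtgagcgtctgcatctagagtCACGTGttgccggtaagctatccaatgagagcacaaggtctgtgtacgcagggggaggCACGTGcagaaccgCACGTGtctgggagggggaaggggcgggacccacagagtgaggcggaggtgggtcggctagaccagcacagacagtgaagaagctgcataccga
Nr1d1: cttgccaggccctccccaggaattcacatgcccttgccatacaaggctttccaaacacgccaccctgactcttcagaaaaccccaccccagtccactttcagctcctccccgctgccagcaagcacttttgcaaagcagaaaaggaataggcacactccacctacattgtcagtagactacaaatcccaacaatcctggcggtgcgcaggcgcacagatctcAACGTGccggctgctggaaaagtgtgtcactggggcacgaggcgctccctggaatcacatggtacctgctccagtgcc
Arntl: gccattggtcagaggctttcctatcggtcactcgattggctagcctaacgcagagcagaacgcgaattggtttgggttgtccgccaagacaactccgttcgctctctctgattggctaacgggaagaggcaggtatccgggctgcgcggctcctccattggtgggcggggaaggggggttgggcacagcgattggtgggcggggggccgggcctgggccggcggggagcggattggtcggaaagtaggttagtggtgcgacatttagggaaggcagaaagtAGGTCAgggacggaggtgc
Ciart held 3 E-boxes, Nr1d1 held 1 E′-box and Arntl held 1 core site, while the letters of these motifs did not occur in the Dbp window. The window of another Arntl start, at chr7:113207215-113207514, held none of the motifs. Of the other genes called in 129, the window of Nr1d2 held 1 core site, that of Hlf held 1 CRE and that of Usp2 held none, and windows of Gsk3b and Csnk1e were not used here.

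Of the 10 members, 9 had a window in this set. The E-box also stood in 1 window of Per1, in that of Cry1 and in both windows of Tef, and the D-box stood at 2 places in that of Per3. Cry1 and Tef, read from their brightest probe sets, were not called for the sample numbers, so windows with an E-box belonged both to genes that split and to genes that did not. The Per1 window, at chr11:69098699-69098998, and the Per3 window, at chr4:151044616-151044915 on the minus strand, are given for comparison.
Per1: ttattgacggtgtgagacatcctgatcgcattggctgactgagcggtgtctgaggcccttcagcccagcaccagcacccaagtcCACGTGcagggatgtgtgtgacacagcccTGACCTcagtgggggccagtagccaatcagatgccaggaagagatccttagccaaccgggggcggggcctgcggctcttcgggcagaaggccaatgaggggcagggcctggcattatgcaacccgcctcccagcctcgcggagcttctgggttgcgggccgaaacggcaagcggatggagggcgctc
Per3: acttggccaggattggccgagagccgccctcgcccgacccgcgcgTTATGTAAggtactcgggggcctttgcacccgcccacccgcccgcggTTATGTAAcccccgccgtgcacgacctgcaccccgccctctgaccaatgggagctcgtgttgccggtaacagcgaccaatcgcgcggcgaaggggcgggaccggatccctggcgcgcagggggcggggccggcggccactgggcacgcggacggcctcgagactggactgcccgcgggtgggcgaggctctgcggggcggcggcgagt

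Different probe sets of 1 gene did not always move alike. Tef's brightest probe set differed by 0.03 between higher and lower numbers (adjusted p = 0.742), while its 2 dimmer probe sets differed by 0.51 and 0.44 (adjusted p = 4.8e-06 and 0.030 among all probe sets). The second Nr1d2 probe set differed by 0.16, against -0.26 for the brightest, and other Per3 probe sets gave -0.14 and -0.091, against 0.22. A dimmer Per2 probe set was called within 129, at -0.58 (adjusted p = 1.1e-05), where the brightest gave -0.12. Over both strains another Per2 probe set gave -0.05 (adjusted p = 0.784), against -0.21 for the brightest. A second Arntl probe set rose in both strains, by 0.41 in 129 and 0.50 in C57. Per1, Nr1d1 and Ciart each had 1 probe set, and both probe sets of Dbp gave the same signs in 129.

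Other measures moved with the split as well. The actin 3′ to 5′ difference ran from 0.91 to 1.94 with a median of 1.10 at higher numbers and from 1.06 to 2.76 with a median of 1.31 at lower numbers. Of 5 microglial markers tested only Cx3cr1 was called, at 0.49, with 2 estimates higher and 3 lower (median -0.03). Of 4 endothelial markers Pecam1 rose by 0.23 and Flt1 fell by 0.32, with 2 estimates higher and 2 lower. Of 6 neuron markers only Neurod6 was called, at -0.29, with 3 estimates higher and 3 lower (median -0.02). Within 129 the endothelial Cldn5 rose by 0.34 and Slco1a4 fell by 0.25 as well. None of the tested markers of striatum, oligodendrocytes, astrocytes, choroid plexus, hypothalamus or blood was called for the numbers. With the actin difference as a covariate Dbp, Nr1d2 and Per2 (adjusted p = 0.0498) kept their calls, while Per3 gave 0.22 (adjusted p = 0.0769) and Arntl over both strains gave 0.14 (adjusted p = 0.0974). The part of cell makeup, hybridization and time of dissection in these differences was not tested.

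Among 24 tested genes that answer to the clock and to other inputs such as glucocorticoids, temperature and neuronal activity, 4 rose and 1 fell with higher numbers within 129, beside 3.26% and 2.33% of all genes. The activity-induced genes Fos, Egr2 and Fosb rose by 0.81 (adjusted p = 0.00193), 0.55 (adjusted p = 0.0458) and 0.35 (adjusted p = 0.0328), and the growth inhibitor gene Btg2 by 0.74 (adjusted p = 0.000641). Egr2 and Fosb were dim, at mean signals of 4.23 and 3.65. Egr1, Arc, Npas4, Nr4a1, Junb, Dusp1 and Ier2 were not called within 129. Tspan4, a tetraspanin gene, fell by 0.32 (adjusted p = 0.0210). Within C57 only Klf10, a zinc finger gene with a daily rhythm in several tissues, was called, at -0.42 (adjusted p = 0.0202), where 2.72% of all genes were. Over both strains Tsc22d3, a glucocorticoid-induced gene, rose by 0.28 (adjusted p = 0.0395) and the activity-induced Junb by 0.31 (adjusted p = 0.0454).

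The members were also set against the rank of the sample number within each group, which does not use the point of the split. The split cuts this same order, so a step at the split also gives a relation with the rank. After adjustment over the 10 relations tested, 3 of the 10 were called. Nr1d2 had r = -0.67 and rho = -0.71 (n = 37, permutation p = 1e-05 for r, the smallest that 100000 permutations give, adjusted p = 0.0001). Dbp had r = -0.60 and rho = -0.63 (permutation p = 0.00018, adjusted p = 0.0009), and Per2 had r = -0.46 and rho = -0.43 (permutation p = 0.00547, adjusted p = 0.0182). Without the 2 arrays whose rank lay farthest from the median rank, r stayed at -0.70, -0.57 and -0.39. These arrays were the same for every gene and were not chosen by signal, and ties were broken by array order. Within the lower and within the higher numbers r was 0.19 and -0.40 for Dbp, -0.47 and -0.23 for Nr1d2 and 0.17 and -0.44 for Per2, with no permutation p under 0.05. Within a set of 18 or 19 arrays none of the relations was called, though r kept its sign in both sets for Nr1d2 and stayed near the overall value at higher numbers for Per2.

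How the members varied together across arrays was measured over all 45 pairs after group means were removed. The median r was 0.13, 30 pairs had r above 0, and 13 had an unadjusted permutation p under 0.05. Only Cry2 with Tef and Dbp with Nr1d2 were called by r, and only Dbp with Nr1d2 by rho. Cry2, a repressor, and Tef had r = 0.66 (n = 37, permutation p = 0.00014, adjusted p = 0.0063). Their rho was 0.51 (permutation p = 0.00242, adjusted p = 0.054). Their r was 0.82 within higher and 0.43 within lower numbers. It was 0.94 in 129 KO, 0.04 in 129 WT, 0.49 in C57 KO and 0.66 in C57 WT. In 129 KO array 59 was the lowest for both genes. Without the 2 arrays farthest from the median of Cry2, after group means were removed, r was 0.48.

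Dbp and Nr1d2 had r = 0.51 (permutation p = 0.00144, adjusted p = 0.0324) and rho = 0.62 (permutation p = 0.00013, adjusted p = 0.00585). This relation did not hold within the number sets, where r was 0.05 at higher and 0.11 at lower numbers. Per1 and Tef had r = 0.48 with an adjusted p of 0.0507, and r = 0.61 with an adjusted p of 0.00833 once the means of group and number set were removed. Per1 and Dbp had r = 0.74 in 129 and -0.24 in C57 after the same step, and this difference was not tested. Since Dbp and Arntl form separate clusters in 129, their relation is given within number sets: r was -0.59 at higher numbers (n = 9) and -0.41 at lower numbers (n = 10).

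**Figure D5:**
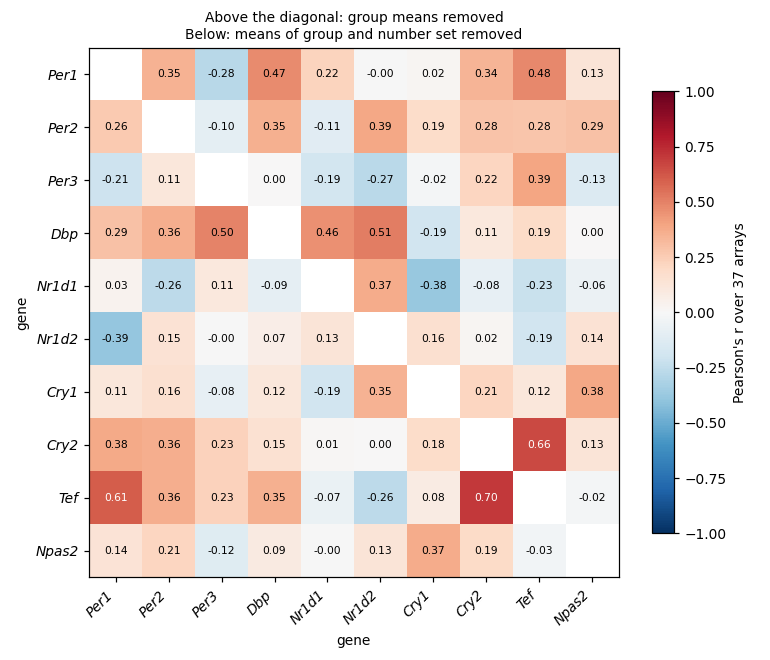
Pearson's r between the 10 genes over 37 arrays, with group means removed above the diagonal and means of group and number set removed below it. Cry2 with Tef is the strongest pair on both sides, at 0.66 and 0.70, and Dbp with Nr1d2 is 0.51 above and 0.07 below.

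The genes outside the 10 whose signals were most like Dbp's over 37 arrays were Usp2 (r = 0.84), Kcnq3 (0.82), Ewsr1 (0.76), Ciart (0.75) and Ttc19 (0.75), and the most opposed were Gpr108 (-0.76), Agk (-0.76) and Chst10 (-0.75). After the means of group and number set were removed, r with Dbp was 0.55 for Usp2, 0.72 for Kcnq3 and 0.30 for Ciart. For Per1 the most alike were Tfe3, Smarcd1, Hepacam, Zdhhc1 and Adam23 (r from 0.70 to 0.74) and the most opposed were Pnoc, Cpne8 and Dnah7a (-0.75 to -0.70). For Nr1d1 they were Nphp4, Klhl40, Tmod3, Lmna and Tmem86a (0.61 to 0.63), against Grm5, Hspa5 and Top1 (-0.67 to -0.64). For Per2 they were Dnal1, Lgalsl, Spry2, Ppp3cb and Ids (0.63 to 0.71), for Per3 Celf2, Gria1, Rab36, Glrx3 and Rprd2 (0.66 to 0.71), and for Npas2 Zfp952, Ints13, Stk26, Tasor2 and Med26 (0.55 to 0.58). The signals were normalized between arrays, the labels name no hybridization batch, and the values are a description. Of the outputs with other inputs, Rgs16 (0.46), Nampt (-0.38), Fkbp5 (0.36), Klf9 (0.34), Zbtb16 (0.33) and Btg2 (-0.33) had the r values farthest from 0 with Per1.

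Clock lies on chromosome 5, as does Wfs1, and its probe sets disagreed. The brightest gave a KO minus WT difference of 0.04 in 129 and 0.04 in C57. A dimmer one averaged 7.72 ± 0.11 in 129 KO (SD, n = 10) and 7.70 ± 0.06 in 129 WT (n = 9), and 7.59 ± 0.18 in C57 KO and 7.19 ± 0.12 in C57 WT (n = 9 each). It was called in C57, at 0.40 (SE 0.06, adjusted p = 0.000472 among all probe sets), and not in 129, at 0.02. Its 129 minus C57 difference was 0.13 in KO (adjusted p = 0.329) and 0.51 in WT (adjusted p = 1.36e-06).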

How the data were processed

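The table deposited by the authors held log2 probe set values, normalized between arrays; MAS5 and GCRMA are named, per the submitters' processing notes, with no version or role. It held 45101 probe sets on 37 arrays, 64 of them controls, with 0 missing values. Of the rest, 34945 had 1 gene symbol in the platform annotation, 932 had several and 9160 had none; the last 2 kinds were left out. Values were used as deposited, with no pseudocount. The gene filter was the 40th percentile of probe set means, a log2 signal of 3.60, reached in at least 1 group. The number of arrays per group limits the precision.

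One limma model (limma 3.58.1, R 4.3.3) with a mean per group was fitted to all genes; sample-number fits added a term for the split, or used 8 means. Permutation tests (100000 draws within groups, or exact) ran in Python 3.11.15 with SciPy 1.17.1, NumPy 2.4.6, matplotlib 3.10.9 and pandas 2.3.3. The methods were tested on simulated data. Genes named were the members, the called genes of 2 further lists with a few named whatever their result, and the genes most like 6 members. The members and lists were chosen with earlier results of these data known. Alternatives were filters, scalings, probe set rules, eBayes settings, array weights, an actin covariate, the split as a block or alone, and each array left out; the split taken within strains, centring by group and number set, single-strain pairs, and the split's fits for all genes and for Arntl, Ciart and Usp2 were added after seeing the data.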

Additional observations from a re-analysis of the deposited data

Results flagged for a closer look

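Within groups, 52 combinations of a gene and a group were examined for an array far from the rest, and 5 stood out; chance alone marks about 1 group in 20. Tef at 8.79 and Cry2 at 7.26 were lowest on the same array, 129 KO array 59. Nr1d2 was lowest at 8.99 on 129 KO array 57, Npas2 was lowest at 5.35 on 129 KO array 52, and Per3 was highest at 6.81 on C57 WT array 34.

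The difference between higher and lower sample numbers was not the same in the strains for Dbp (-0.72, 129 minus C57, adjusted p = 0.00109), Ciart (-0.60, adjusted p = 0.00959) and Arntl (0.40, adjusted p = 0.0102), by limma's test of the difference itself over all 13078 genes. For Arntl this was -0.0916 with its second probe set (adjusted p = 0.771) and 0.16 with the mean of both (adjusted p = 0.290). The split's part as a batch, a day or a time of dissection was not tested.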

How the results depend on the processing

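Under the alternatives tried, with either number set alone and with each array left out, 0 members were called for KO minus WT in 129, in C57, over both strains and for the difference of effects. For KO minus WT in C57, the genes called in all numbered 4 with lower numbers only, 5 with higher numbers only and 7 with only the groups compared, and 6 to 17 with 1 array left out (6 without C57 WT array 33). Over both strains they numbered 5 with quantile normalization and with every probe set, 10 with array weights, 1 with higher numbers only and 3 to 5 with 1 array left out; for the difference of effects, 5 with every probe set, 1 with lower and 0 with higher numbers only, and 2 to 4 with 1 array left out. For 129 minus C57 in WT, 1 member was called with the stricter filter, the mean of probe sets, eBayes trend and robust, array weights, the actin covariate, the split as a block, only the groups compared (each Per1) and higher numbers only (Dbp), and 0 to 1 with 1 array left out; genes called numbered 426 with every probe set, 678 with array weights, 59 with lower and 117 with higher numbers only. In KO, members called numbered 1 with the mean of probe sets (Per1) and with lower numbers only (Dbp, with Per1 and Npas2 not called), 0 with higher numbers only and 2 with any array left out, and genes called 614 with every probe set, 256 with lower and 28 with higher numbers only and 257 with only the groups compared. A number set alone holds fewer samples. For the sample numbers, 2 members were called with no filter and 2 to 4 with 1 array left out. Within C57, 0 to 1 members and 177 to 510 genes were called with 1 array left out, and 52 to 148 genes for the difference between strains. Pairs called numbered 1 by Spearman's rho, 7 without removal of group means, 4 with quantile normalization, 5 with median centring, 8 in 129 only, 0 in C57 only and 1 to 4 with 1 array left out; members that followed the sample number numbered 0 within either number set and 3 to 4 with 1 array left out.

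Signs turned with other probe sets, and the cause was not tested: for higher minus lower numbers Per3 gave -0.14 and -0.0910 and Nr1d2 0.16; within 129 Nr1d2 gave 0.30 (0.00012 by the mean of probe sets) and Tef 0.35 (0.30 by the mean); within C57 Arntl gave 0.50 (0.24 by the mean); for the difference between strains Per2 gave -0.59 and Arntl -0.0916. Dim signal limits Bhlhe41, below the filter, and Fosb, with a mean of 3.65 just above it. No paired analysis was possible because the labels give no pairing of samples.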
